A study of Homo sapiens with 9 samples.

Results

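The 9 genes described here encode ligands of the epidermal growth factor (EGF) family, namely AREG, EREG, HBEGF, TGFA, EGF, BTC and NRG4, and the proteases ADAM10 and ADAM17 that release such ligands from the cell surface. They were chosen by gene name from a table of 37351 genes, of which 8 of the 9 were found. EREG was not analysed here. RNA sequencing was performed on LNCaP cells, a human metastatic prostate carcinoma line. There were 3 libraries labelled as biological replicates at each of 3 times after addition of recombinant NRG1. All cells had first been starved in medium without serum and calcium. The 0 h libraries come from cells without NRG1, and the 12 h and 24 h libraries from cells given 15 ng/mL NRG1. Libraries from cells kept in the same medium for 12 h or 24 h without NRG1 were not analysed here, so NRG1 and time in the medium cannot be told apart.

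Ligands of this family are made as membrane-anchored precursors that carry an EGF-like domain, a short fold held by 3 disulfide bonds between 6 cysteines. Metalloproteases of the ADAM family cut the precursor next to the membrane, and the freed domain binds a receptor of the ErbB family on the same or a neighbouring cell. HBEGF, AREG, TGFA, EGF and BTC bind EGFR, and HBEGF and BTC also bind HER4. NRG4 binds HER4, and the added NRG1 binds HER3 and HER4, which pair with HER2.

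The coding sequences of the EGF-like domains are shown because this is the stretch the ligands share, and because it shows how far apart they are at the level of the bases counted. Capitals mark the codons of the 6 cysteines, and each sequence runs 5′ to 3′ on the coding strand.
HBEGF: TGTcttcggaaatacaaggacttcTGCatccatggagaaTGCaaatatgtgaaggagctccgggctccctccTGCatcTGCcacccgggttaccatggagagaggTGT
AREG: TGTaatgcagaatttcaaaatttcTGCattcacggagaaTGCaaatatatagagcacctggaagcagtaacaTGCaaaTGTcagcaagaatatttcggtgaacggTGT
TGFA: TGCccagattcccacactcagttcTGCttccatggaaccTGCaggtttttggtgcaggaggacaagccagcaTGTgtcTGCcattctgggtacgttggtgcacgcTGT
EGF: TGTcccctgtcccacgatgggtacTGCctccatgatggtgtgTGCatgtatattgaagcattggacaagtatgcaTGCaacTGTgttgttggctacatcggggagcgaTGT
BTC: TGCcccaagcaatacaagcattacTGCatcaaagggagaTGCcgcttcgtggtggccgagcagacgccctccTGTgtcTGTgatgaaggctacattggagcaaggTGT
NRG4: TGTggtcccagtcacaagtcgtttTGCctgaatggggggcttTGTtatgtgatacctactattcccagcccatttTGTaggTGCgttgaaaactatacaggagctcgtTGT
The sequences were taken from the transcripts of GENCODE v44, and the coordinates given are those of GRCh38. The HBEGF stretch spans exons 3 and 4 at chr5:140335997-140342711 on the minus strand, and the same pair of exons encodes the domain of AREG (chr4:74449172-74450410, plus strand), TGFA (chr2:70456458-70465692, minus), BTC (chr4:74750689-74755935, minus) and NRG4 (chr15:75961944-76009279, minus). In EGF it spans exons 20 and 21 at chr4:109994801-109999709 on the plus strand. Each domain has 36 or 37 residues from the first to the last cysteine. Between pairs of these ligands 30.6% to 52.8% of aligned residues were identical, with the highest value for HBEGF with AREG and for TGFA with BTC. No pair of members shared an identical run of more than 30 bases anywhere in their transcripts.

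Total counts ranged from 47016302 to 60985825 per library, and the 0 h libraries were the deepest. Levels are given as CPM, read counts scaled to library size with factors from the trimmed mean of M values (TMM), and differences as log2 fold changes with their standard errors (SE) from the quasi-likelihood fit of edgeR over 19250 genes. The 8 prostate cancer markers used here, such as KLK2 and KLK3, all had reads at every time, with a summed level of 4195 to 4639 CPM per library. The fibroblast markers summed to 24.6 to 28.8 CPM, nearly all from COL1A1, while FAP and COL1A2 were at 0 in 8 of 9 libraries. COL3A1, a collagen of this list, rose from a mean of 0.566 CPM at 0 h to 1.13 at 12 h (log2 fold change 0.98, edgeR adjusted p = 0.00900) and 1.43 at 24 h (1.32, edgeR adjusted p = 0.000320), past both thresholds, though the 12 h call was lost without 0 h replicate 2 (adjusted p = 0.0822). LUM rose from 1.03 CPM at 0 h to 1.52 at 24 h (log2 fold change 0.56, edgeR adjusted p = 0.0479), a call that was lost when any 1 of the 9 libraries was left out (adjusted p up to 0.166). The immune and endothelial markers, 5 of 6 of which were analysed, had sums between 13.1 and 13.9 CPM at 0 h, between 8.59 and 9.82 at 12 h, and between 7.11 and 8.04 at 24 h. Nearly all of this was VWF, and CD3E, PECAM1 and PTPRC stayed below 0.1 CPM in every library. VWF thus moved in the opposite direction to HBEGF, and COL3A1 and LUM in the same direction. PDGFRB had means of 0.669, 0.787 and 0.871 CPM at 0, 12 and 24 h. COL1A1 did not rise, with means of 24.6, 22.4 and 22.8 CPM, and DCN had 8, 1 and 2 summed reads. The part of these genes in the results was not tested.

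HBEGF was the member that rose past both thresholds. It encodes heparin-binding EGF-like growth factor, a ligand that also serves as the diphtheria toxin receptor in its membrane form. The gene (ENSG00000113070.8) lies at chr5:140332843-140346603 on the minus strand. HBEGF had 436, 378 and 410 reads in the 0 h replicates, 558, 586 and 542 at 12 h, and 663, 666 and 737 at 24 h. In CPM these were 7.03, 6.52 and 7.02 at 0 h, 10.3, 11.1 and 11.2 at 12 h, and 14.1, 12.2 and 14.1 at 24 h. Every 12 h library lay above every 0 h library, and every 24 h library above every 12 h library. RNA came from whole cultures, so more cells with HBEGF and more HBEGF RNA per cell cannot be told apart. HBEGF was 1.58-fold higher at 12 h than at 0 h (log2 fold change 0.66, SE 0.081, edgeR adjusted p = 1.04e-07) and 1.97-fold higher at 24 h (log2 fold change 0.98, SE 0.080, edgeR adjusted p = 6.22e-12). Between 12 h and 24 h it rose by a further 1.24-fold (log2 fold change 0.31, SE 0.077, edgeR adjusted p = 0.00971). That last call did not hold when 12 h replicate 1 was left out (adjusted p = 0.0707), nor when replicate 1 (0.0563) or replicate 3 (0.0710) of 24 h was.

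**Figure D1:**
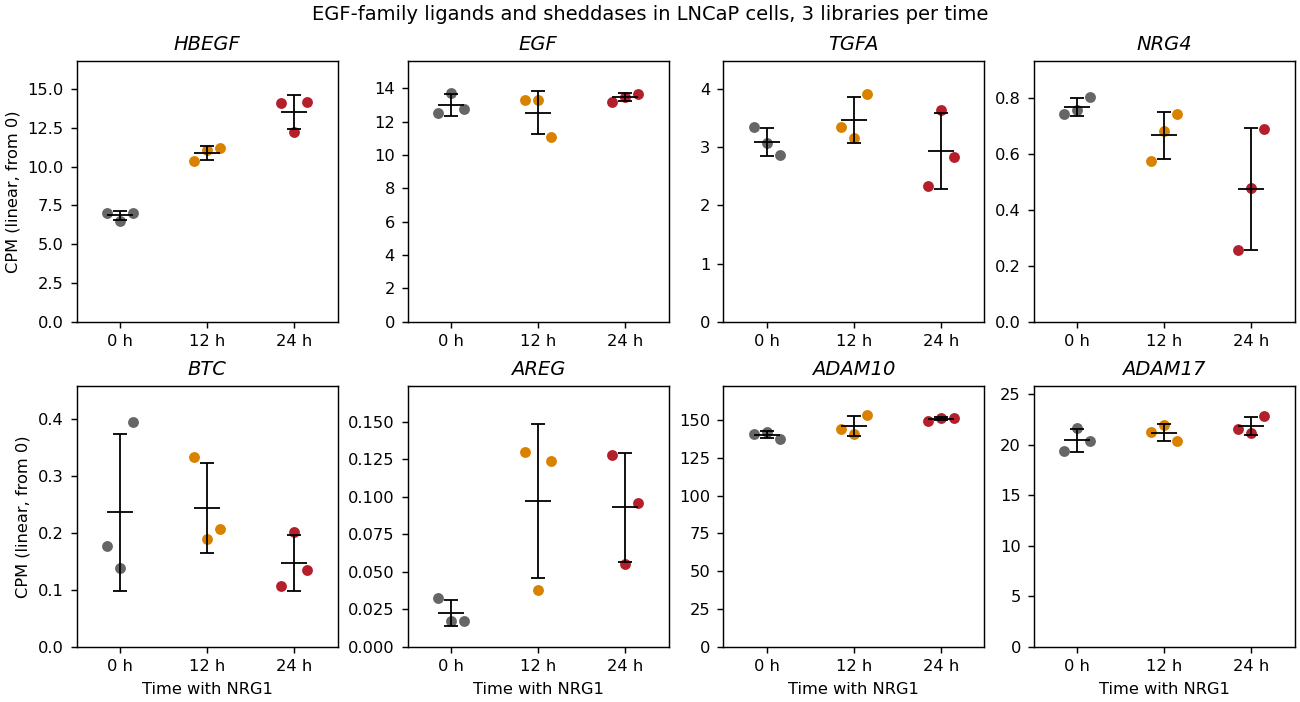
Level of the 8 analysed members by time. Each point is 1 library in CPM on a linear axis that starts at 0 and differs between panels, and bars show the mean and SD of 3 libraries; HBEGF has means of 6.86, 10.9 and 13.5 CPM at 0, 12 and 24 h with no overlap between the times, while EGF, ADAM10 and ADAM17 stay within a narrow band.

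Calls required both an adjusted p no higher than 0.05 and a change of 1.5-fold or more. Of the 7 members with enough counts to be tested, 1 passed at 12 h against 0 h and 1 at 24 h against 0 h, in both cases HBEGF. Of all tested genes 2.37% and 3.31% passed, and 0.992% and 1.53% did so in the upward direction. On the adjusted p alone, HBEGF passed at 12 h, and HBEGF and ADAM10 passed at 24 h, against 18.7% and 21.1% of all tested genes. Between 12 h and 24 h no member passed both thresholds, and HBEGF passed the adjusted p alone, against 0.452% and 6.08% of all tested genes. At an unadjusted p under 0.05 this last comparison likewise held HBEGF alone, and DESeq2 also gave 0 members past both thresholds. In the test of any difference among the 3 times HBEGF passed (edgeR adjusted p = 2.68e-11), as did 25.1% of all tested genes. The replicates of the compared times did not overlap for 1 of the 7 tested members at 12 h, 3 at 24 h and 1 between 12 h and 24 h, beside 32.8%, 33.5% and 24.4% of all tested genes. The median log2 fold change of the 7 members was 0.05 at 12 h and 0.05 at 24 h, beside -0.01 and -0.01 for all tested genes.

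**Figure D2:**
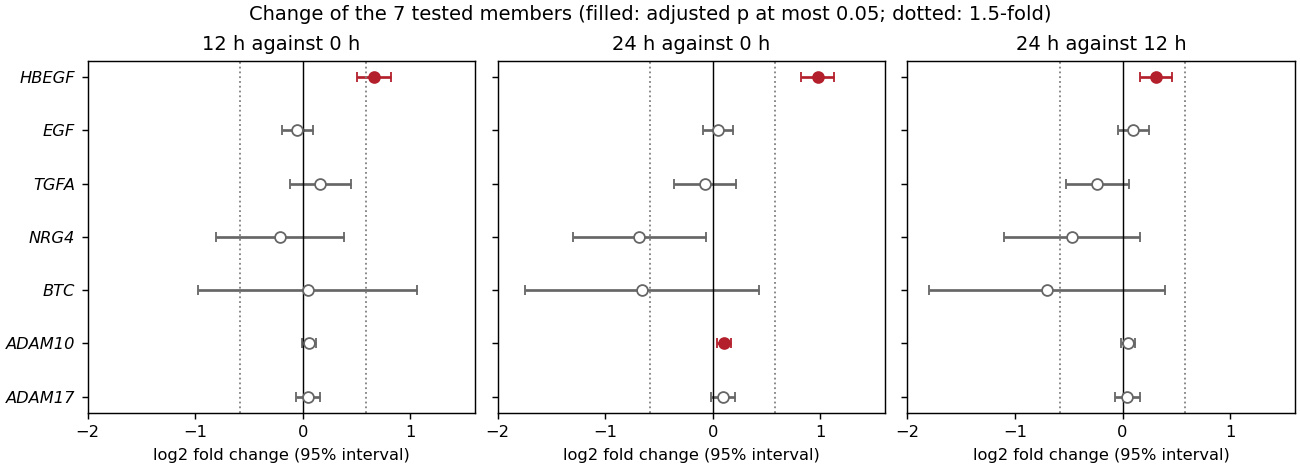
Fitted log2 fold change of the 7 tested members in the 3 comparisons, with 95% intervals. Filled points have an adjusted p of at most 0.05 and dotted lines mark a 1.5-fold change; HBEGF stands to the right in all 3 panels (0.66, 0.98 and 0.31), ADAM10 is filled at 24 h with a small value of 0.11, and the intervals of NRG4 and BTC are the widest.

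The genes whose log2 CPM followed HBEGF most closely over the 9 libraries, among the 11399 genes whose mean log2 CPM reached 2, were ARSG (Pearson's r = 0.993), SEMA6D (r = 0.992) and P4HTM (r = 0.992). The 9 points share their libraries and fall into 3 times, so these values describe a likeness of time course. The sizes of change differed: the log2 fold change at 24 h against 0 h was 0.42 for ARSG, 1.75 for SEMA6D and 0.18 for P4HTM.

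As HBEGF was the ligand that passed, the bases upstream of its start site are shown, from chr5:140346604-140346853 of GRCh38.p14 as RefSeq gives them, read 5′ to 3′ on the minus strand. Capitals mark GGGCGG, the GC box bound by Sp1, and its reverse complement.
HBEGF: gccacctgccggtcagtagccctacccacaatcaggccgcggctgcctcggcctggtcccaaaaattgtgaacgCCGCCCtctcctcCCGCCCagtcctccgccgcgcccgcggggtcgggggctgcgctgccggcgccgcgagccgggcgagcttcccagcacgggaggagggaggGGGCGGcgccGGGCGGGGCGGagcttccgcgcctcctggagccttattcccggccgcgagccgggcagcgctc
This window held 5 matches on either strand, of which the last pair overlap by 1 base, and 42.6% of all promoter windows of this length held at least 1. No match was found in it for AP-1 (TGANTCA), the cAMP response element (TGACGTCA), EGR (GCGGGGGCG or GCGTGGGCG) or ETS (CCGGAA), which were present in 6.57%, 1.65%, 5.37% and 14.5% of all windows. The window was 76.4% GC, beside a median of 58.0% over all windows. Among the other ligands, AREG held the cAMP response element and an ETS match, and EGF held an AP-1 match. Of the 2 windows of TGFA, 1 held an ETS match. GC boxes were also found in AREG, in the other window of TGFA, in ADAM10 and in ADAM17, which held an ETS match as well. EGF, TGFA and ADAM17 passed in no comparison. Such matches describe the letters of the window only.

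AREG encodes amphiregulin, a ligand of EGFR alone. The gene (ENSG00000109321.11, chr4:74445136-74455005, plus strand) had 2, 1 and 1 reads at 0 h, 7, 2 and 6 at 12 h, and 6, 3 and 5 at 24 h. The 0 h libraries were the lowest, and the 0 h range touched neither later range in CPM, though 12 h replicate 2 with 2 reads came close. It was under the count filter and was not tested in the fit of all genes. From the summed reads of 4, 15 and 14, the rate was 4.31 times that of 0 h at 12 h (exact 95% counting interval 1.37 to 17.8) and 4.07 times at 24 h (1.28 to 16.98). These intervals cover counting error only. An exact two-sided permutation test over the libraries gave p = 0.1 for each, which is the smallest p that 3 against 3 libraries allow. When all genes with a count were tested, the adjusted p in edgeR was 0.372 at 12 h and 0.393 at 24 h, so no difference between the times was called. The stretch just upstream of AREG, chr4:74445016-74445135 on the plus strand in GRCh38.p14 (RefSeq), is shown with the cAMP response element and a GC box (as CCGCCC) in capitals.
AREG: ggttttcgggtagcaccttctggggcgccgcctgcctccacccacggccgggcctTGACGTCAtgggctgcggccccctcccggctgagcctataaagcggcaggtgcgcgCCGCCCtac
The element TGACGTCA lay 65 to 58 bases before the start site.

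EGF, the founding member of the family, did not pass in any comparison. The gene (ENSG00000138798.13, chr4:109912883-110013766, plus strand) stood at 12.5, 13.7 and 12.7 CPM at 0 h, 13.3, 13.3 and 11.1 at 12 h, and 13.2, 13.5 and 13.7 at 24 h. The ranges overlapped in all 3 comparisons, and 12 h replicate 3 was the lowest library. The log2 fold change was -0.05 at 12 h (95% interval -0.19 to 0.09) and 0.05 at 24 h (-0.09 to 0.19), so both intervals lay inside a 1.5-fold change in either direction.

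TGFA encodes transforming growth factor alpha, a ligand of EGFR whose precursor is cut mainly by ADAM17. The gene (ENSG00000163235.16, chr2:70447284-70554193, minus strand) had 3.35, 3.07 and 2.88 CPM at 0 h, 3.35, 3.16 and 3.92 at 12 h, and 2.34, 3.64 and 2.84 at 24 h. The 3 ranges overlapped, and the 24 h libraries spread widest. The log2 fold change was 0.16 at 12 h (95% interval -0.12 to 0.45, edgeR adjusted p = 0.504) and -0.07 at 24 h (-0.36 to 0.22, edgeR adjusted p = 0.802), and neither passed. The 24 h value changed sign without 24 h replicate 1, to 0.07.

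NRG4 encodes a neuregulin that binds HER4. The gene (ENSG00000169752.17, chr15:75935969-76059795, minus strand) had 46, 44 and 47 reads at 0 h, 31, 36 and 36 at 12 h, and 12, 26 and 36 at 24 h. In CPM this was 0.742, 0.759 and 0.805 at 0 h, 0.574, 0.681 and 0.743 at 12 h, and 0.256, 0.478 and 0.691 at 24 h. Every 24 h library lay below every 0 h library, and the 24 h libraries differed among themselves by more than the 0 h libraries did. The log2 fold change at 24 h was -0.68 (SE 0.31, edgeR adjusted p = 0.131) and did not pass. Without 24 h replicate 3 it was -1.04 with an adjusted p of 0.0362, past both thresholds. NRG4 overlaps FBXO22 on the other strand, which had 23355 reads beside 314 for NRG4, and transcripts of the 2 genes share 1576 identical bases. The strand setting of the counting was not stated, so reads of the 2 genes cannot be told apart in the shared bases.

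BTC encodes betacellulin. The gene (ENSG00000174808.12, chr4:74744759-74794523, minus strand) had 11, 8 and 23 reads at 0 h, 18, 10 and 10 at 12 h, and 5, 11 and 7 at 24 h. The 3 ranges overlapped, and the highest value came from 0 h replicate 3. The log2 fold change was 0.05 at 12 h (SE 0.52, edgeR adjusted p = 0.969) and -0.66 at 24 h (SE 0.56, edgeR adjusted p = 0.467). The 24 h interval ran from -1.74 to 0.43.

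BTC and AREG share a stretch of chromosome 4 with EPGN, which encodes epigen, another ligand of EGFR (ENSG00000182585.10, chr4:74308470-74316789, plus strand). EPGN had 1 read, in a 12 h library. NRG1 itself had 1 read in all 9 libraries together, in a 24 h library. NRG2, which binds HER3 and HER4, had 10 reads at 0 h, 3 at 12 h and 3 at 24 h. At 0 h a count of 0 over the 3 libraries allows up to 0.0168 CPM, the value of 3 reads over that group.

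NRG3, a neuregulin that binds HER4, was the other EGF-family gene that passed. The gene (ENSG00000185737.13, chr10:81875194-82987179, plus strand) had 204, 181 and 192 reads at 0 h, 121, 115 and 84 at 12 h, and 115, 128 and 136 at 24 h. Every 12 h and 24 h library lay below every 0 h library in CPM, with means of 3.23 at 0 h, 2.05 at 12 h and 2.47 at 24 h. NRG3 fell by 0.65 on the log2 scale at 12 h (SE 0.15, edgeR adjusted p = 0.00133), past both thresholds, as did 1.38% of all tested genes in the downward direction. Without 12 h replicate 3 the log2 fold change was -0.55 (adjusted p = 0.0173), which no longer reached 1.5-fold. At 24 h its log2 fold change was -0.39 (SE 0.15, edgeR adjusted p = 0.0543), which did not pass, although it passed the adjusted p (0.0460) among genes with at least 10 counts in every library, and the difference between 24 h and 12 h did not pass either (0.27, SE 0.15, edgeR adjusted p = 0.367).

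ADAM10 cuts the precursors of EGF and BTC among many other membrane proteins. The gene (ENSG00000137845.15, chr15:58588809-58749791, minus strand) was the most abundant member, with 140.7, 142.3 and 137.6 CPM at 0 h, 143.8, 140.7 and 153.2 at 12 h, and 149.6, 151.6 and 151.4 at 24 h. Every 24 h library lay above every 0 h library, while the 12 h libraries overlapped both. ADAM10 rose 1.08-fold at 24 h (log2 fold change 0.11, SE 0.034, edgeR adjusted p = 0.0239), well under the 1.5-fold threshold. The call was lost without 0 h replicate 3 (adjusted p = 0.0882), 24 h replicate 2 (0.0715) or 24 h replicate 3 (0.0558), and with all genes tested (0.0512). At 12 h its log2 fold change was 0.06 (SE 0.034, edgeR adjusted p = 0.278).

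ADAM17 is the main protease for HBEGF, TGFA and AREG. The gene (ENSG00000151694.14, chr2:9488486-9556732, minus strand) stood at 19.4, 21.6 and 20.4 CPM at 0 h, 21.3, 21.96 and 20.3 at 12 h, and 21.6, 21.2 and 22.9 at 24 h. The ranges overlapped in all 3 comparisons. The log2 fold change was 0.05 at 12 h (95% interval -0.06 to 0.17, edgeR adjusted p = 0.600) and 0.10 at 24 h (-0.01 to 0.21, edgeR adjusted p = 0.258), so neither interval reached a 1.5-fold change. ADAM17 overlaps IAH1 on the other strand, with 15025 reads beside 10298 and 1257 identical bases shared, so its level carries the same uncertainty as that of NRG4.

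Levels of different genes were compared as CPM per kilobase (kb) of the longest annotated transcript. At 0 h the order was ADAM10 with 12.6 ± 0.214 (SD, n = 3), ADAM17 with 3.11 ± 0.171, HBEGF with 2.91 ± 0.124, EGF with 2.04 ± 0.102, TGFA with 0.753 ± 0.0583, NRG4 with 0.226 ± 0.00957, BTC with 0.0891 ± 0.0519 and AREG with 0.0180 ± 0.00705. The ranges of ADAM17 and HBEGF overlapped, and those of the other neighbours in the order did not. At 12 h HBEGF stood at 4.61 ± 0.197, above ADAM17 at 3.22 ± 0.125 in every library, and at 24 h at 5.73 ± 0.463, above ADAM17 at 3.33 ± 0.136 in every library. At the bottom of the order BTC and AREG overlapped at 12 h, and NRG4, AREG and BTC each overlapped the next at 24 h. The place of ADAM17 depends on the length used: with all annotated exons summed it stood at 1.28 at 0 h, below both HBEGF (2.29) and EGF (1.70), and with the MANE Select transcript at 4.66, above both. With summed exons HBEGF lay above ADAM17 at all 3 times. With the MANE Select transcript ADAM17 had the higher mean at 12 h (4.83 against 4.61 for HBEGF) and the lower at 24 h (4.98 against 5.73), and the ranges overlapped at both times.

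Among the 19250 tested genes, HBEGF lay above 48.9% of genes at 0 h, 57.0% at 12 h and 60.9% at 24 h on this per-length scale. ADAM10 lay above 76.3% at 0 h, and TGFA above 29.9%. All receptors but HER4 stood above every ligand: at 0 h ERBB2 (HER2) stood at 50.2 CPM per kb, ERBB3 (HER3) at 32.8 and EGFR at 18.8, while ERBB4 (HER4) stood at 0.0385.

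**Figure D3:**
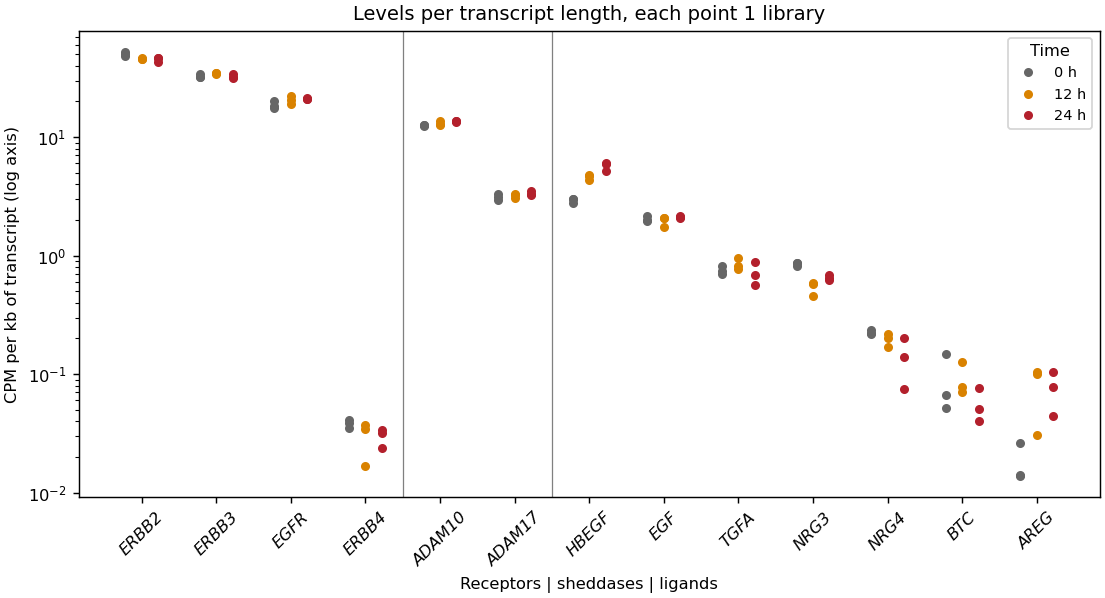
Level per transcript length of receptors, sheddases and ligands, in CPM per kb on a log axis. Each point is 1 library and colours give the time; ERBB2, ERBB3 and EGFR lie above 17 and ERBB4 below 0.05, and HBEGF overlaps ADAM17 at 0 h and lies above it at 12 h and 24 h with this length.

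The 6 ligands together summed to 6.03 ± 0.0680 CPM per kb at 0 h, 7.78 ± 0.0941 at 12 h and 8.82 ± 0.358 at 24 h, with no overlap between the times. HBEGF made up 48.2% ± 1.52 of this sum at 0 h, 59.2% ± 1.86 at 12 h and 64.9% ± 3.17 at 24 h. EGF made up 33.8% ± 2.08, 25.2% ± 2.70 and 23.9% ± 0.920. The rise of the sum lay almost wholly in HBEGF, which went from 2.91 CPM per kb at 0 h to 5.73 at 24 h. EGF itself stood at 2.04 and 2.11, so its share fell without a fall of its level. HBEGF was 1.43 ± 0.129 times as abundant as EGF at 0 h and 2.72 ± 0.229 times at 24 h. ADAM10 was 4.05 ± 0.207 times as abundant as ADAM17 at 0 h, 4.06 ± 0.340 times at 12 h and 4.07 ± 0.161 times at 24 h, with overlapping ranges throughout. The size of this ratio depends on the length used: at 0 h it was 6.86 ± 0.350 with summed exons and 2.70 ± 0.138 with the MANE Select transcript.

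**Figure D4:**
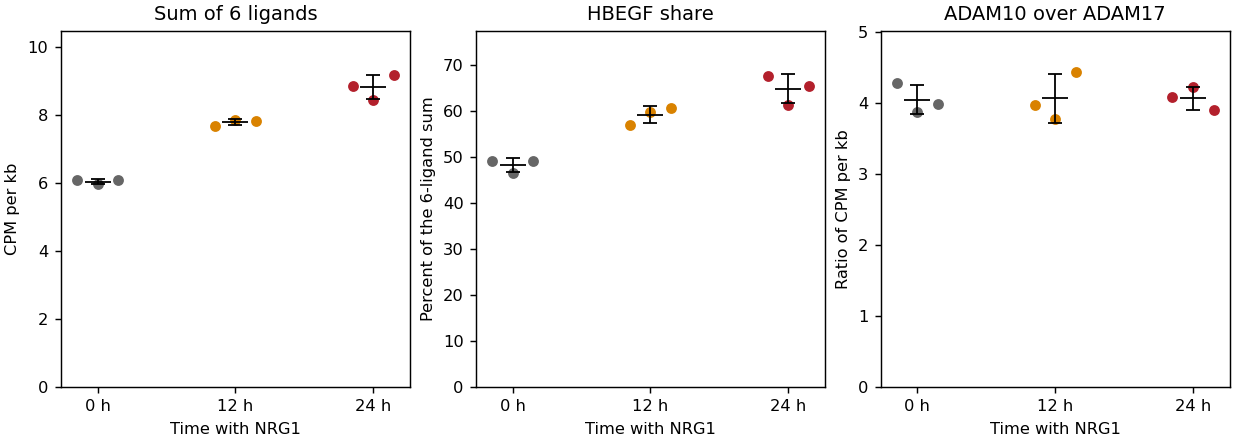
Sum of the 6 ligands in CPM per kb, HBEGF as a percentage of that sum, and the ratio of ADAM10 to ADAM17, by time. Each point is 1 library and bars show the mean and SD of 3; the sum and the HBEGF share are higher at each later time (48.2%, 59.2% and 64.9%), and the protease ratio, with the longest transcript as length, stays near 4.05.

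Release of the ligands also depends on proteins that carry, activate or inhibit the proteases and ligands. A list of 27 genes for these and for other proteases, such as ADAM9, ADAM15 and BACE1, was examined. Of them 25 had enough counts to be tested. At 0 h ADAM15 and ADAM9 stood at 66.4 and 34.5 CPM per kb, above ADAM10 at 12.6. On the adjusted p alone, 5 rose and 1 fell at 12 h, 5 rose and 2 fell at 24 h, and 2 had higher levels at 24 h than at 12 h. The shares of all tested genes that rose and fell on the same rule were 10.6% and 8.16% at 12 h, 11.6% and 9.48% at 24 h, and 3.03% rose between 12 h and 24 h. The median log2 fold change of the 25 genes was 0.01 at 12 h and 0.10 at 24 h. In both comparisons with 0 h, 1 of the 25 passed the fold threshold as well, in the upward direction. Of all tested genes 2.37% and 3.31% passed both thresholds, and 0.992% and 1.53% did so upward.

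RHBDF2 encodes iRhom2, which brings ADAM17 out of the endoplasmic reticulum and holds it at the surface. RHBDF2 had 8.58, 9.28 and 8.15 CPM at 0 h, 11.2, 10.3 and 10.3 at 12 h, and 9.33, 11.0 and 12.4 at 24 h. All later libraries lay above all 0 h libraries, 24 h replicate 1 only just. It rose by a log2 fold change of 0.29 at 12 h (SE 0.088, edgeR adjusted p = 0.0156) and 0.33 at 24 h (SE 0.088, edgeR adjusted p = 0.00457). The 12 h call was lost without 0 h replicate 3 or 12 h replicate 1 (adjusted p up to 0.0951) and the 24 h call without 24 h replicate 3 (0.0822). Its paralog RHBDF1 did not pass at 12 h or 24 h (-0.09 and 0.05).

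NKD2, which escorts TGFA-bearing vesicles to the membrane, had means of 5.04, 6.62 and 6.53 CPM at 0, 12 and 24 h. It rose by 0.40 at 12 h (SE 0.10, edgeR adjusted p = 0.00442) and 0.38 at 24 h (SE 0.10, edgeR adjusted p = 0.00623) on the log2 scale, and the 12 h call was lost without 12 h replicate 1 (0.0568). CNIH1, a cornichon cargo receptor for export from the endoplasmic reticulum, rose by 0.15 at both times (edgeR adjusted p = 0.000870 and 0.00113). The related CNIH4 fell by 0.17 at 24 h (edgeR adjusted p = 0.00618), a call that was lost without 0 h replicate 1 or 24 h replicate 2 (adjusted p up to 0.0576).

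Among the proprotein convertases, which remove the inhibitory prodomain of ADAM proteases, PCSK6 had 48.3, 46.3 and 46.5 CPM at 0 h, 51.2, 50.03 and 51.3 at 12 h, and 56.5, 56.9 and 57.8 at 24 h. The times did not overlap. PCSK6 rose by 0.11 at 12 h (SE 0.040, edgeR adjusted p = 0.0428), by 0.28 at 24 h (SE 0.039, edgeR adjusted p = 1.05e-06) and by 0.17 from 12 h to 24 h (SE 0.039, edgeR adjusted p = 0.00614) on the log2 scale. The 12 h call was lost under 9 of 17 alternatives, with adjusted p-values up to 0.115. SNRPA1 overlaps it on the same strand and had 112% as many reads. FURIN was higher at 24 h than at 12 h by 0.14 (SE 0.038, edgeR adjusted p = 0.0227) but passed at neither time against 0 h. That call was lost with GC content and length trends removed, and when 12 h replicate 3 was left out, or replicate 2 or 3 of 24 h (adjusted p up to 0.169). PCSK5 moved the other way, with 0.371, 0.483 and 0.462 CPM at 0 h and 0.222, 0.208 and 0.227 at 12 h. These ranges did not overlap, as for 32.8% of all tested genes. At 24 h PCSK5 had 0.469, 0.221 and 0.384 CPM. Its 12 h log2 fold change of -0.99 was the lowest of the 25 tested genes, but PCSK5 was called in no comparison. With at least 10 counts required in every library, which removed TIMP1, 1 gene of the list passed both thresholds at 12 h.

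TSPAN10 and TSPAN14 encode tetraspanins that guide ADAM10 through the cell. TSPAN10 fell by 0.46 at 12 h (SE 0.13, edgeR adjusted p = 0.0101), with 3.56, 4.16 and 3.92 CPM at 0 h and 2.72, 2.86 and 2.87 at 12 h. The call was lost without 0 h replicate 2 or 12 h replicate 1 (adjusted p up to 0.0522), and TSPAN10 overlaps NPLOC4 on the other strand, which had 80218 reads beside 1622. TSPAN14 fell by 0.16 at 24 h (SE 0.039, edgeR adjusted p = 0.00273), and this was lost without 24 h replicate 3 (0.0566) and with GC content and length trends removed (0.122). The other TspanC8 members TSPAN5, TSPAN15, TSPAN17 and TSPAN33 passed in no comparison.

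TIMP1, a secreted inhibitor of metalloproteases, was the gene of this list that passed both thresholds, at very low counts. It had 0, 3 and 0 reads at 0 h, 13, 22 and 27 at 12 h, and 2, 10 and 8 at 24 h. The 12 h libraries lay above all others, and the 24 h libraries overlapped those of 0 h. From the summed reads of 3, 62 and 20, its rate was 23.7 times that of 0 h at 12 h (exact 95% counting interval 7.76 to 118) and 7.75 times at 24 h (2.30 to 40.7). The edgeR adjusted p was 9.24e-05 at 12 h and 0.0298 at 24 h. The exact two-sided permutation test over the libraries gave p = 0.1 at 12 h, the smallest it allows, and p = 0.2 at 24 h. The 24 h call was lost when replicate 1 or 3 of 0 h was left out, or replicate 2 or 3 of 24 h (adjusted p up to 0.136), and DESeq2 gave TIMP1 no adjusted p. With only the 6 libraries of 0 h and 24 h it was not tested. From 12 h to 24 h its log2 fold change was -1.63 (edgeR adjusted p = 0.106). That fall passed the adjusted p only in a fit of the 6 compared libraries (edgeR adjusted p = 0.0444). TIMP3, the inhibitor that acts on ADAM17, had 5, 8 and 14 summed reads at the 3 times and was under the count filter, as was the protease ADAM19 with 2, 6 and 4.

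**Figure D5:**
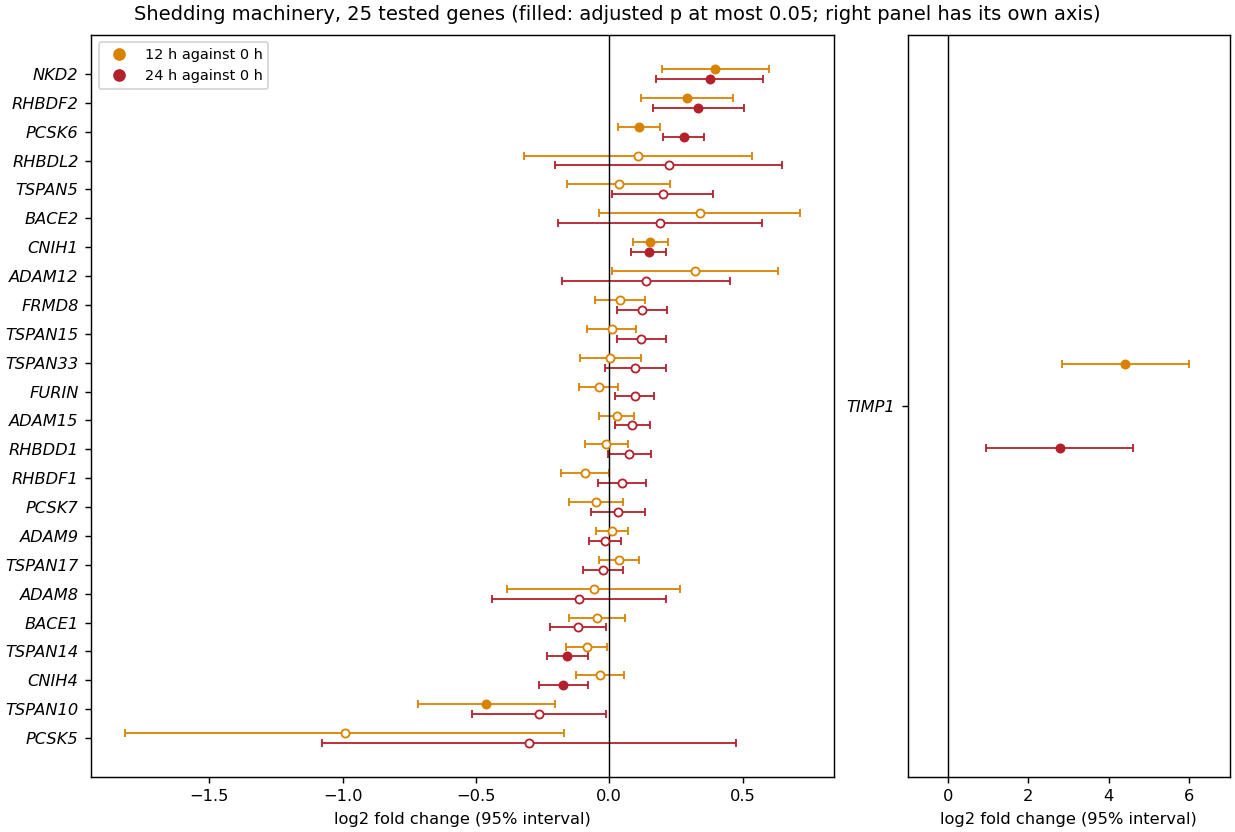
Fitted log2 fold change of the 25 tested genes of the list, at 12 h and at 24 h against 0 h, with 95% intervals. They encode other proteases and proteins that carry, activate or inhibit sheddases and ligands. Filled points have an adjusted p of at most 0.05, and TIMP1 has its own panel and axis; most genes lie close to 0, NKD2, RHBDF2, PCSK6 and CNIH1 are filled to the right at both times, and TIMP1 rests on 3 reads at 0 h.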

How the data were processed

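RNA-seq of LNCaP cells was analysed in 9 libraries, 3 at each of 0, 12 and 24 h with NRG1, grouped by sample title. Per the study's methods, the authors made poly(A) libraries, trimmed reads with Cutadapt, aligned them to GRCh38.p13 with STAR and counted them per GENCODE v38 gene with featureCounts. They deposited whole-number read counts for each library, with no normalization and no pooling. Strand and multi-mapping settings were not given in the sources used here. The methods state that 1 LNCaP time-zero replicate was left out for quality, without naming its treatment. All 9 deposited libraries were used. Depth was 47016302 to 60985825 counts per library.

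The test used edgeR 4.0.16 (R 4.3.3; filterByExpr, which left 19250 genes, TMM scaling, robust quasi-likelihood fit of all 9 libraries, Benjamini-Hochberg adjustment over all tested genes), with limits of 0.05 for the adjusted p and 1.5 for the fold change. CPM uses TMM-scaled totals. The lowest correlation of log2 CPM within a group was 0.991, and no pair of replicates agreed within sampling noise (chi-square per degree of freedom 3.06 to 8.34). P-values measure the spread between libraries labelled as biological replicates. The study's methods describe plating in triplicate wells and do not state whether the replicates were independent experiments. The spread may therefore be that between wells. The sparse genes AREG and TIMP1 were described by the ratio of summed reads with an exact Clopper-Pearson 95% interval, which covers counting error only, as does the limit from a count of 0, since molecules were not tagged. Intervals of log2 fold changes come from the edgeR fit and include the spread between libraries. The method was tested on simulated counts. Lengths, exons and overlaps come from GENCODE v44, in which the start and end of every member matched the deposited table, and promoters from RefSeq on GRCh38.p14, which held all 9 named genes. Motifs were searched on both strands in the 250 bases before the start site, the background being 35116 promoter windows.

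All 9 members, the 4 other ligands of the family, the receptors and every gene of the list of 27 past the adjusted p were named, at most 8 per comparison, with the 3 genes most like each member that passed the test among the times. The members and lists were chosen with earlier results of these data known. One marker gene is not reported here. Alternatives were DESeq2 1.42.0, median-of-ratios factors, no scaling, other count filters, only the compared libraries, the replicate number as a block, other fold thresholds and each library left out. Removal of trends on GC content and length, and the summed exon and MANE Select lengths, were added after seeing the data.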

Additional observations from a re-analysis of the deposited data

Results flagged for a closer look

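The effects at 12 h and at 24 h differed by a direct test, 24 h against 12 h, for 3 of the genes described. HBEGF was higher at 24 h by a log2 fold change of 0.31 (edgeR adjusted p = 0.00971), PCSK6 by 0.17 (edgeR adjusted p = 0.00614) and FURIN by 0.14 (edgeR adjusted p = 0.0227). In each, every 24 h library lay above every 12 h library. Of all tested genes, 24.4% showed no overlap between these times.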

How the results depend on the processing

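HBEGF kept its direction and passed the adjusted p at 12 h and at 24 h against 0 h under all 17 alternatives, with log2 fold changes of 0.63 to 0.70 and 0.94 to 1.04. The count of members past both thresholds was 1 at 12 h and 1 at 24 h. A 2-fold threshold gave 0 at both times. With no fold threshold it was 2 at 24 h and 1 between 12 h and 24 h, and leaving out single libraries gave 1 to 2 at 24 h. On the adjusted p alone, the count of members at 12 h was 2 with GC content and length trends removed, through ADAM10 (adjusted p = 0.0164). At 24 h it was 1 with all genes tested and 1 to 2 when libraries were left out, and between 12 h and 24 h it was 0 to 1. In the test among all times it was 2 with DESeq2, with no scaling factor and with trends removed, and 1 to 2 when libraries were left out; in each the second gene was ADAM10. The count for the 27 transport and protease genes ranged from 2 to 6 at 12 h and from 1 to 2 between 12 h and 24 h when libraries were left out, and was 1 between 12 h and 24 h with trends removed.

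Signs turned where no call was made. When single libraries were left out, TGFA at 24 h ranged from -0.25 to 0.067 and EGF at 12 h from -0.089 to 0.034, and BTC at 12 h ranged from -0.25 to 0.62. ADAM10 between 12 h and 24 h was -0.0090 with trends removed and TSPAN14 at 12 h 0.015. CNIH1 between 12 h and 24 h was 0.0064 with no scaling factor and ranged from -0.021 to 0.016 when libraries were left out. Likewise NKD2 ranged from -0.10 to 0.059 and RHBDF2 from -0.061 to 0.14 between 12 h and 24 h, and CNIH4 from -0.068 to 0.0061 at 12 h. The causes were not tested. DESeq2 gave BTC and TIMP1 no adjusted p, and gave NRG4 one at 24 h against 0 h alone. TIMP1 and BTC were removed by a minimum of 10 counts in every library. The deposited table gives no gene length, so levels per length could not be recomputed with its own lengths.

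Libraries with the same replicate number did not deviate together (correlations of -0.04 to 0.03, beside -0.06 to 0.05 for other numbers). No pairing by number was seen, though these values cannot show whether libraries shared a plating. With the replicate number as a block HBEGF stood at 0.67 at 12 h and 0.98 at 24 h, and the counts of members were 1 and 1, as without it. AREG, BTC and NRG4 rest on few reads.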
